A study of Mus musculus with 10 samples.

Results

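Hmga2 and 5 genes that are studied with it in fetal blood stem cells, Hmga1, Igf2bp2, Igf2bp3, Lin28b and Arid3a, were followed across mouse bone marrow cells that carried the leukaemia fusion AML1/ETO, a mutant of it, or an empty vector. The 6 genes were chosen by name, with Hmga2 at the head because its level had already been seen to differ between these arrays. Its differences are therefore given as a description, with no test. In the annotation used, 4 of the 6 genes (Hmga2, Igf2bp3, Lin28b and Arid3a) had a probe set listed for that gene alone, out of 18193 genes analysed in all. Hmga1 and Igf2bp2 had none so listed and were not analysed here.

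The series holds 10 Affymetrix arrays, each of 1 sample. The 3 groups were named W692A (4 arrays), AML1/ETO (3 arrays) and GFP (3 arrays). All cells came from the marrow of C57BL/6 mice aged 5 to 6 weeks, were depleted of lineage-positive cells, selected for Sca1, and grown in RPMI with 20% fetal calf serum, IL-3 at 10 ng/ml, IL-6 at 20 ng/ml and SCF at 10 ng/ml. W692A cells received MigR1 retrovirus encoding AML1/ETO with the W692A substitution, AML1/ETO cells the unaltered fusion, and GFP cells the vector with its green fluorescent marker alone. The fusion joins the DNA-binding part of RUNX1 to most of ETO, and W692A lies in the MYND domain of ETO, which binds the corepressors SMRT and N-CoR. Each culture was transduced a second time 24 hours after the first. At 48 hours after the second transduction, 25000 live cells that were GFP positive, lineage negative, Sca1 positive and cKit positive were sorted, and 50 ng of RNA was amplified in more than 1 round and labelled with biotin. The fusion was thus driven by a retroviral vector in cultured adult cells, and the labels describe independent transductions without saying whether the mice differed. P-values accordingly measure the spread between these samples.

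Hmga2 encodes a small chromatin protein that binds AT-rich DNA through AT hooks and is known for its part in the self-renewal of fetal blood stem cells. Its level is set in development by a switch: Lin28b, abundant in fetal progenitors, blocks the maturation of let-7 microRNAs, and let-7 in adult cells represses messages that include Hmga2, Lin28b itself, Arid3a and the Igf2bp genes. Igf2bp2 and Igf2bp3 encode RNA-binding proteins that bind Igf2 and other messages, Arid3a is a DNA-binding protein of fetal B lymphopoiesis, and Hmga1 is the close relative of Hmga2.

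The mature let-7 microRNAs are shown with their shared seed because the members are reported targets of let-7. No let-7 site in their messages was looked up here. The sequences are those of RefSeq for GRCm38.p6, with the seed, bases 2 to 8, in capitals.
let-7a: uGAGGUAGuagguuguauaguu
let-7b: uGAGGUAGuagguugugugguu
let-7g: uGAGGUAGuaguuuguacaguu
let-7i: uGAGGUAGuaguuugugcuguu
miR-98: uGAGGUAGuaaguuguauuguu
let-7j: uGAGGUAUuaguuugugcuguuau
Of 11 mature names from 13 loci, 10 had the seed GAGGUAG, and let-7j had GAGGUAU. The microRNAs themselves were not measured on these arrays.

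The promoter windows of the 2 members that are described in most detail below follow, since both had more signal with the fusion than with GFP on several probe sets. Each window runs 5′ to 3′ on the gene's strand, from 250 bases before a RefSeq transcript start to 50 bases after it, on build GRCm38.p6. Hmga2 (chr10:120361268-120476469) and Igf2bp3 (chr6:49085218-49215469) are both on the minus strand, and the windows are chr10:120476420-120476719 and chr6:49214905-49215204. The Igf2bp3 window belongs to a start that lies inside the annotated gene.
Hmga2: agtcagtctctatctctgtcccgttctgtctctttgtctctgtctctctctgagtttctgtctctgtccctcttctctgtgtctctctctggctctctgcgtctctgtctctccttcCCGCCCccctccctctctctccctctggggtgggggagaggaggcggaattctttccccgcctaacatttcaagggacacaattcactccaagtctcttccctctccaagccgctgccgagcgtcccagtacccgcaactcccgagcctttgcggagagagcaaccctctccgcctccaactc
Igf2bp3: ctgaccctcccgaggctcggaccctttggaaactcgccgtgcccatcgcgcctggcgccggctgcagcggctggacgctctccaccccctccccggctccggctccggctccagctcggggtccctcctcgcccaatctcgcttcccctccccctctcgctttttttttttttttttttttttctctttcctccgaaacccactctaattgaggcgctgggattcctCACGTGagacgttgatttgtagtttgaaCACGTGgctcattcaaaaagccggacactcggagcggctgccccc
Capitals mark a GC box in Hmga2 and E-boxes in Igf2bp3. Motifs were searched on both strands as TGTGGT (the core bound by RUNX proteins), CACGTG (E-box) and GGGCGG (GC box). The Hmga2 window held 1 GC box, on the strand opposite to the one printed, 133 bases before the start, and the first 150 bases were 80.7% C or T, against a median of 50.0% over all windows. Only 0.113% of windows were at or above that share. The Igf2bp3 window held 2 E-boxes, 23 bases before and 5 bases after the start. The Lin28b window (chr10:45470152-45470451) held 1 E-box, 49 bases before the start, which is likewise inside the annotated gene. TGTGGT was not found in the windows of the 5 members with an entry. Of 32851 windows, 16.8% held TGTGGT, 7.15% CACGTG and 35.7% GGGCGG.

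Values below are deposited log2 signals, and a difference is a group mean minus a group mean on that scale. A background bound of 2.04 was taken from bacterial control probe sets, and a fold against a group with an array under it is a lower limit. The processing set all arrays to 1 distribution, so differences in total RNA are not visible, and in these bulk samples more RNA per cell and more cells of a type cannot be told apart. Pairs of arrays within a group had Pearson correlations of 0.982 to 0.992, and pairs from unlike groups 0.887 to 0.962. The Gapdh 3′ minus 5′ difference, a sign of RNA length, was 4.01 ± 0.168 in W692A (SD, n = 4), 4.38 ± 0.573 in AML1/ETO and 4.93 ± 0.0889 in GFP (n = 3 each), and its highest W692A value (4.17) lay under its lowest GFP value (4.83). With that difference as a covariate, 506 genes were called between W692A and GFP in place of 2642. Runx1t1, the gene of ETO, averaged 2.79 in AML1/ETO, while every W692A and GFP array was below the bound, and Runx1 averaged 6.93 in W692A, 6.78 in AML1/ETO and 5.86 in GFP. The place of these probe sets in the fusion is not known here, so they do not check the W692A label. Kit, a marker of the sorted gate, was below the bound in every group, while the mean level of 9 measured stem and progenitor markers was 4.61 to 4.89 in W692A, 5.34 to 5.51 in AML1/ETO and 3.50 to 3.73 in GFP. The mean of 12 neutrophil genes was 5.15 to 5.59 in W692A, 5.22 to 6.17 in AML1/ETO and 5.75 to 6.19 in GFP, and that of 8 measured erythroid genes 1.93 to 2.05, 1.61 to 1.87 and 2.79 to 2.98 in the same order of groups. Of the erythroid genes, Epor, Hba-a1, Alas2, Slc4a1 and Car1 were under the bound in every group. The mean of 8 monocyte and macrophage genes was 4.30 to 4.50 in W692A, 4.55 to 4.80 in AML1/ETO and 3.67 to 3.89 in GFP. Megakaryocyte genes (7) averaged 3.35 to 3.78 in W692A, 3.72 to 3.89 in AML1/ETO and 4.35 to 4.74 in GFP, and B lymphoid genes (7, of which Cd79a, Pax5, Ebf1, Vpreb1 and Igll1 were under the bound) 2.23 to 2.31, 2.23 to 2.33 and 2.76 to 2.85 in that order. The 9 eosinophil, mast cell and basophil genes averaged 3.65 to 3.84 in W692A, 4.09 to 4.84 in AML1/ETO and 4.30 to 4.80 in GFP, and the 5 T and NK lymphoid genes 2.11 to 2.13, 1.92 to 1.98 and 2.22 to 2.47 in that order. Of the T and NK genes, Cd3e, Cd3d, Cd8a and Ncr1 were under the bound in every group. So were Ccr2, Cx3cr1 and Fcgr1 of the monocyte genes, Mcpt1 and Mcpt2 of the mast cell genes, and Gp9 of the megakaryocyte genes. The shifts in these marker means move with the group differences reported below, and their part in them was not tested.

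Hmga2 was bright with both forms of the fusion and much dimmer with the vector. Its brightest probe set, 1422851_at, gave 9.52, 9.36, 9.30 and 9.40 on the W692A arrays, 9.97, 9.45 and 9.52 on the AML1/ETO arrays, and 5.75, 5.44 and 5.54 on the GFP arrays. Every array with either fusion lay well above every GFP array, and the W692A and AML1/ETO ranges overlapped. The means were 9.40 ± 0.0940 in W692A (SD, n = 4), 9.65 ± 0.282 in AML1/ETO (n = 3) and 5.58 ± 0.160 in GFP (n = 3). W692A minus GFP was 3.82 ± 0.136 (SE), a 14.1-fold higher signal, and AML1/ETO minus GFP was 4.07 ± 0.145, a 16.8-fold higher signal. The order of the levels was AML1/ETO, W692A, GFP, and W692A minus AML1/ETO was -0.25 ± 0.136 (SE), given without a test. Among 18193 genes the W692A minus GFP difference was the 8th highest and the AML1/ETO minus GFP difference the 41st highest. Both comparisons share the 3 GFP arrays.

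The 3 other probe sets of Hmga2 placed the groups in the same order. Probe set 1450781_at gave 7.87, 7.41, 7.65 and 7.52 with W692A, 7.87, 7.67 and 7.56 with AML1/ETO, and 2.96, 3.42 and 2.88 with GFP. That is 23.0-fold more signal with W692A and 24.4-fold more with AML1/ETO than with GFP. Probe set 1450780_s_at gave 7.23, 7.03, 6.97 and 7.05 with W692A, 7.62, 7.26 and 7.30 with AML1/ETO, and 3.53, 3.53 and 3.07 with GFP. Its signal was 12.9-fold higher with W692A and 16.2-fold higher with AML1/ETO, and here the highest W692A array lay just under the lowest AML1/ETO array (W692A minus AML1/ETO -0.33 ± 0.139). Probe set 1446196_at stayed near the bound, at 2.16, 1.95, 1.69 and 1.95 with W692A and 2.34, 2.63 and 2.08 with AML1/ETO, and under it at 0.57, 0.61 and 0.71 with GFP. For it, AML1/ETO was at least 1.24-fold above GFP, and no fold is given for W692A, whose mean was under the bound.

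**Figure D1:**
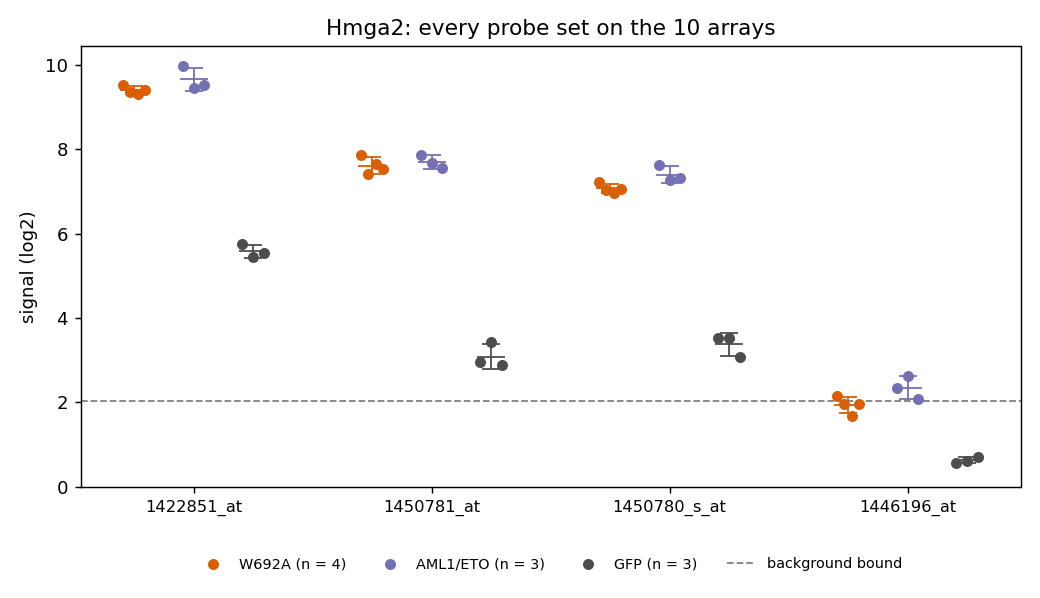
Log2 signal of the 4 Hmga2 probe sets on each array (points), with group mean and SD (bars), for W692A (n = 4), AML1/ETO (n = 3) and GFP (n = 3); the dashed line is the background bound of 2.04. On each probe set all fusion arrays lie above all GFP arrays, and on 1422851_at the W692A arrays (9.30 to 9.52) overlap the AML1/ETO arrays (9.45 to 9.97).

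A separate probe set, 1440559_at, is annotated to the pseudogene Hmga2-ps1 and was named after its values were seen. It gave 1.27, 1.20, 1.41 and 0.98 with W692A, 2.66, 2.61 and 2.70 with AML1/ETO, and 0.90, 1.02 and 0.96 with GFP. The AML1/ETO arrays alone were above the bound, whereas on the 3 brightest probe sets of Hmga2 all arrays with either fusion were above it. AML1/ETO was at least 1.53-fold above GFP (difference 1.70 ± 0.124), and W692A was at least 1.53-fold below AML1/ETO (difference -1.44 ± 0.116). Between W692A and GFP the difference was 0.25. Since this probe set was chosen with its values known, no test is given. How much of this signal comes from the pseudogene rather than from the similar Hmga2 message was not tested.

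Besides Hmga2, 3 measured members were tested. Between W692A and GFP 1 of 3 passed (Arid3a, higher), where 14.5% of all genes did (5.45% higher and 9.07% lower). Between AML1/ETO and GFP 1 of 3 passed (Igf2bp3, higher), where 28.6% did (12.9% higher and 15.8% lower). Between W692A and AML1/ETO 0 of 3 passed in limma and 1 of 3 had an unadjusted p below 0.05, where 20.7% of genes passed (9.61% higher and 11.1% lower). The groups did not overlap for 22.3% of all genes between W692A and GFP (9.85% higher, 12.5% lower), for 39.1% between AML1/ETO and GFP (18.1% higher, 21.0% lower), and for 27.2% between W692A and AML1/ETO (13.7% higher, 13.5% lower).

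Igf2bp3, an RNA-binding member, rose with AML1/ETO. Its brightest probe set, 1433732_x_at, gave 3.40, 3.32, 3.36 and 3.55 with W692A, 3.73, 3.92 and 3.65 with AML1/ETO, and 2.88, 2.99 and 3.41 with GFP. The AML1/ETO arrays were above all others, while GFP replicate 3 lay within the W692A range. AML1/ETO was 1.59-fold above GFP (difference 0.67 ± 0.144, limma adjusted p = 0.00211). W692A minus GFP was 0.31 ± 0.135 (limma adjusted p = 0.157, 95% confidence interval 0.02 to 0.60). This difference passed without GFP replicate 3, at 0.47 (limma adjusted p = 0.0274). W692A minus AML1/ETO was -0.36 ± 0.135 (limma adjusted p = 0.0761, 95% confidence interval -0.65 to -0.07). That difference, too, passed without GFP replicate 3, which enters it through the shared spread (limma adjusted p = 0.0354).

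Of the 5 other probe sets of Igf2bp3, the 2 above the bound showed larger differences from GFP than the brightest one. Probe set 1433731_at gave 3.07, 3.10, 3.38 and 3.39 with W692A, 3.50, 3.42 and 3.51 with AML1/ETO, and 2.75, 2.52 and 2.78 with GFP. In the fit of every probe set it was higher with W692A (difference 0.55, limma adjusted p = 0.00755) and with AML1/ETO (0.79, limma adjusted p = 2.77e-04) than with GFP, while W692A minus AML1/ETO was -0.24 (limma adjusted p = 0.230), smaller than on the brightest probe set. Probe set 1422610_s_at gave 2.64, 2.69, 2.40 and 2.44 with W692A, 3.38, 3.31 and 2.88 with AML1/ETO, and 1.48, 1.33 and 1.43 with GFP, so that the 3 groups were separate. In the same fit W692A exceeded GFP by at least 1.42-fold (limma adjusted p = 6.60e-05) and AML1/ETO exceeded GFP by at least 2.22-fold (limma adjusted p = 4.04e-07). It was 1.57-fold lower with W692A than with AML1/ETO (limma adjusted p = 0.00345). The remaining 3 probe sets were below the bound on all arrays. Probes of the x and s classes can match more than 1 transcript. Of the relatives, Igf2bp1 was below the bound on all 4 of its probe sets and Igf2bp2 was not analysed. Whether other transcripts add to the Igf2bp3 signal was not tested.

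Arid3a, on chr10:79927043-79955018, has 1 probe set, 1419396_at, which lay near the bound. It gave 2.40, 2.29, 2.79 and 2.75 with W692A, 2.44, 2.54 and 2.48 with AML1/ETO, and 1.56, 1.67 and 2.53 with GFP. GFP replicate 3 was as high as the fusion arrays, and the other two GFP arrays were below the bound. Arid3a was at least 1.28-fold higher with W692A than with GFP (difference 0.64 ± 0.199, limma adjusted p = 0.0440). The adjusted p rose to between 0.0531 and 0.230 when any of GFP replicate 1 or 2, AML1/ETO replicate 1, 2 or 3, or W692A replicate 3 or 4 was left out, and without GFP replicate 3 the difference was 0.94 (limma adjusted p = 0.00118). Floored at the bound, the difference was 0.35 (limma adjusted p = 0.347), and with the Gapdh covariate the adjusted p was 0.481 at a difference of 0.66. AML1/ETO minus GFP was 0.57 ± 0.212 (limma adjusted p = 0.0608), and 0.87 without GFP replicate 3 (limma adjusted p = 9.74e-04). W692A minus AML1/ETO was 0.07 (95% confidence interval -0.35 to 0.49, limma adjusted p = 0.877).

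Lin28b, the let-7 inhibitor, on chr10:45376617-45486314, has 1 probe set, 1430803_at, and was below the bound on all 10 arrays. It gave 0.31, 0.32, 0.30 and 0.32 with W692A, 0.30, 0.32 and 0.12 with AML1/ETO, and 0.37, 0.27 and 0.45 with GFP. No difference passed (limma adjusted p = 0.812 for W692A against GFP, 0.526 for AML1/ETO against GFP and 0.760 for W692A against AML1/ETO), and values under the bound are no higher than the highest control probe set. Its relative Lin28a was below the bound on both of its probe sets as well.

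**Figure D2:**
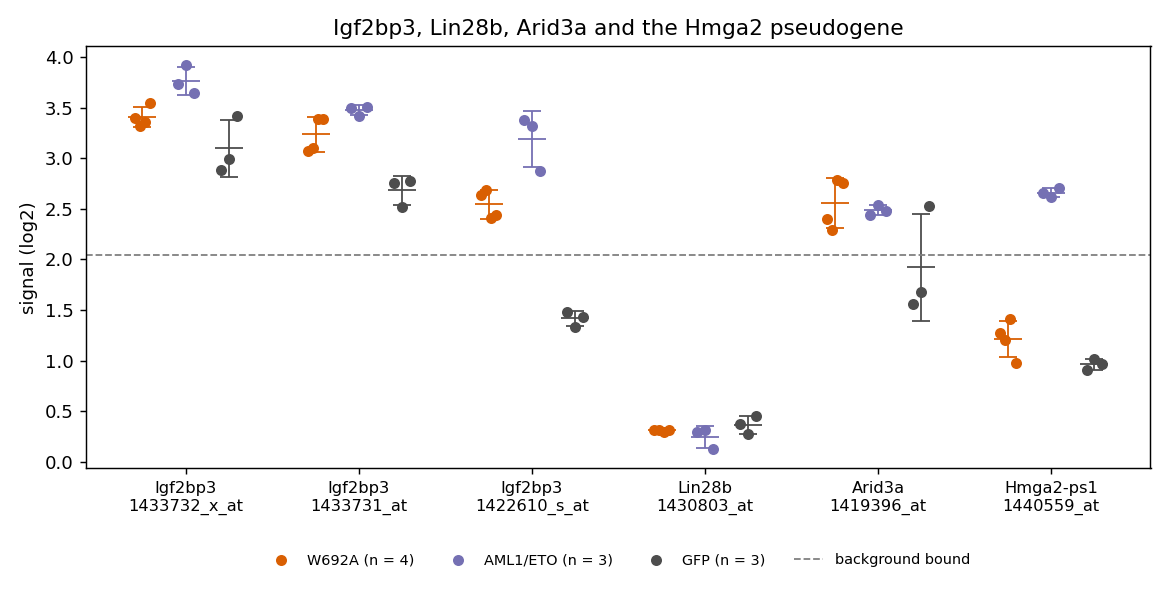
Log2 signal of the Igf2bp3 probe sets above background, of Lin28b, Arid3a and the pseudogene Hmga2-ps1 on each array (points), with group mean and SD (bars); the dashed line is the bound of 2.04. For 1422610_s_at the groups separate, at 2.40 to 2.69 in W692A, 2.88 to 3.38 in AML1/ETO and 1.33 to 1.48 in GFP, for Arid3a GFP replicate 3 (2.53) lies among the fusion arrays, and Lin28b stays under the bound.

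The genes that make, modify and use let-7 did not move as a block. Of 18 measured genes of this list other than the members, 13 had a group mean above the bound. Between W692A and GFP, 1 rose, 2 fell and 15 did not pass, with a median difference of 0.02 against 0.01 over all genes. Between AML1/ETO and GFP, 4 rose, 3 fell and 11 did not pass (median 0.07, all genes -0.02), and between W692A and AML1/ETO 4 were higher, 3 lower and 11 did not pass (median -0.09, all genes 0.03). Counts of this and the following lists include genes whose means were under the bound in both groups compared. Here that was Ago4, an Argonaute protein, among those that rose with AML1/ETO and those lower with W692A than with AML1/ETO.

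Xpo5, the exporter of precursor microRNAs from the nucleus, was lowest with AML1/ETO. It gave 3.74, 4.12, 4.52 and 4.14 with W692A, 3.24, 3.54 and 3.66 with AML1/ETO, and 4.74, 4.64 and 4.97 with GFP. It fell 2.47-fold with AML1/ETO (difference -1.30 ± 0.177, limma adjusted p = 4.04e-05). It fell 1.57-fold with W692A (limma adjusted p = 0.0157, but 0.0708 without GFP replicate 3), and was 1.57-fold higher with W692A than with AML1/ETO (limma adjusted p = 0.0103, but 0.0635 without AML1/ETO replicate 1).

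Tut4 and Tut7 encode the enzymes that add uridines to let-7 precursors bound by Lin28, and they differed in opposite ways with W692A. Tut7 gave 6.14, 6.22, 6.25 and 6.14 with W692A, 7.17, 7.17 and 7.17 with AML1/ETO, and 6.91, 6.47 and 6.62 with GFP. It was 1.98-fold lower with W692A than with AML1/ETO (difference -0.98 ± 0.116, limma adjusted p = 2.38e-05) and rose 1.42-fold with AML1/ETO over GFP (limma adjusted p = 0.00544). With W692A it fell 1.39-fold below GFP (limma adjusted p = 0.0111, but 0.0685 without GFP replicate 1). Tut4 rose 1.59-fold with AML1/ETO (limma adjusted p = 0.00215) and 1.39-fold with W692A (limma adjusted p = 0.0290). Its call with W692A was lost without GFP replicate 1 or 3 or W692A replicate 1 or 4 (limma adjusted p 0.0606 to 0.130). With the mean of each gene's probe sets none of the Xpo5, Tut7 and Tut4 calls between W692A and GFP remained (limma adjusted p 0.125 to 0.649), at differences of -0.37 for Xpo5, -0.10 for Tut7 and 0.14 for Tut4. With the Gapdh covariate their adjusted p was 0.246 to 0.561, but the differences were -0.49 for Xpo5, -0.54 for Tut7 and 0.48 for Tut4, in place of -0.65, -0.48 and 0.47.

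Dicer1 and Dgcr8, which cut and recognise microRNA precursors, were lower with AML1/ETO by 1.42-fold and 1.35-fold against GFP (limma adjusted p = 0.0309 and 0.0303). Both calls were lost without GFP replicate 1 (limma adjusted p = 0.166 for Dicer1 and 0.143 for Dgcr8), AML1/ETO replicate 1 or AML1/ETO replicate 2, and that of Dgcr8 also without AML1/ETO replicate 3. They were 1.38-fold higher each with W692A than with AML1/ETO (limma adjusted p = 0.0440 and 0.0193), and Ddx17, a helicase of the Drosha complex, was 1.39-fold lower (limma adjusted p = 0.0252). Leaving out single AML1/ETO or W692A arrays took these 3 past the threshold, to at most 0.177 for Dicer1 (without AML1/ETO replicate 2), 0.0630 for Dgcr8 (without AML1/ETO replicate 1) and 0.0777 for Ddx17 (without AML1/ETO replicate 3).

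**Figure D3:**
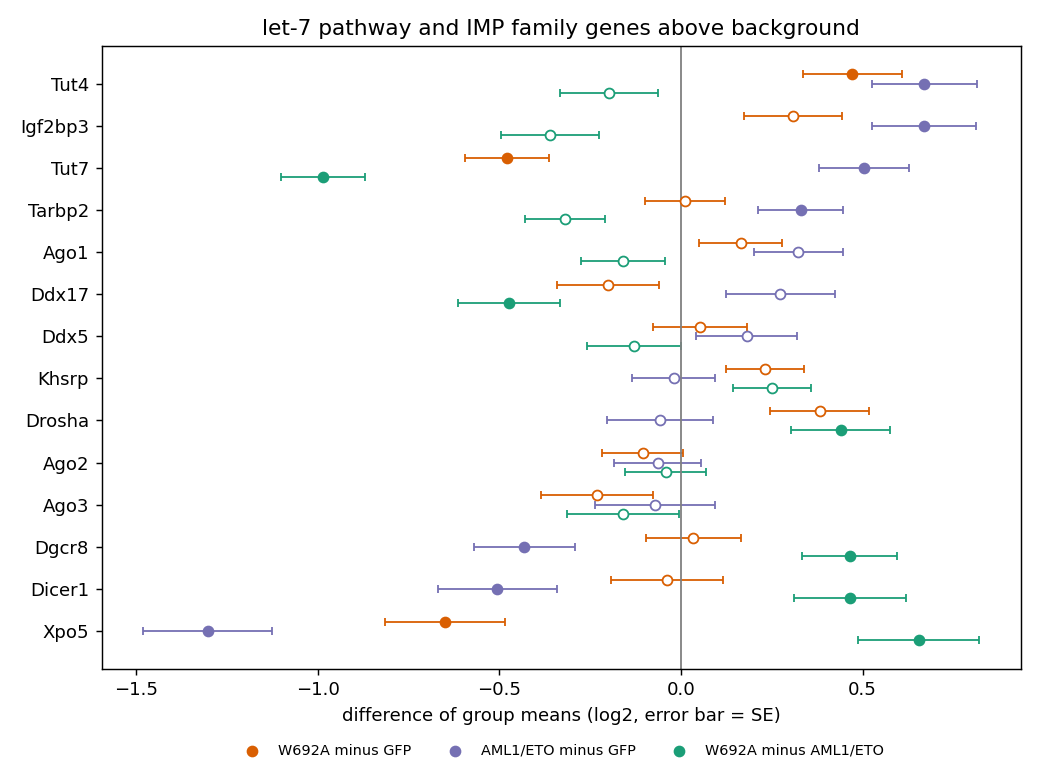
Difference of group means (log2, bars are SE) for Igf2bp3 and the let-7 pathway genes above background in some group, for W692A minus GFP, AML1/ETO minus GFP and W692A minus AML1/ETO; filled points have a limma adjusted p below 0.05. Xpo5 is lowest in AML1/ETO minus GFP at -1.30, and Tut7 is at -0.48 in W692A minus GFP and 0.50 in AML1/ETO minus GFP.

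Reported targets of let-7 other than the members went both ways. Of 27 measured, 22 above the bound in a group, 2 rose, 3 fell and 22 did not pass between W692A and GFP (median 0.02, all genes 0.01). Between AML1/ETO and GFP, 5 rose, 8 fell and 14 did not pass (median -0.01, all genes -0.02). Between W692A and AML1/ETO, 5 were higher, 3 lower and 19 did not pass (median 0.04, all genes 0.03). Among those that fell were genes of the cell cycle. Ccnd1, cyclin D1, gave 3.02, 2.80, 3.11 and 3.16 with W692A, 2.27, 2.82 and 2.52 with AML1/ETO, and 4.16, 4.45 and 4.75 with GFP. It fell 2.69-fold with W692A (limma adjusted p = 2.16e-05) and 3.77-fold with AML1/ETO (6.13e-07). Myc fell 1.83-fold with W692A (limma adjusted p = 9.47e-04, but 0.266 with the Gapdh covariate, at a difference of -0.64 in place of -0.87) and 2.34-fold with AML1/ETO (2.46e-05). E2f6, a repressor of the E2F family, fell 1.36-fold with W692A (limma adjusted p = 0.00833, but 0.179 with the Gapdh covariate, at a difference of -0.53 in place of -0.44).

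Rrm2, a subunit of ribonucleotide reductase, averaged 9.03 with W692A, 8.26 with AML1/ETO and 9.19 with GFP. It fell 1.91-fold with AML1/ETO (limma adjusted p = 5.32e-05) and was 1.71-fold higher with W692A than with AML1/ETO (3.07e-04). Nme6 and Cdc25a, a nucleoside diphosphate kinase and a phosphatase that activates cyclin-dependent kinases, were likewise 1.73-fold and 1.69-fold higher with W692A than with AML1/ETO (limma adjusted p = 3.65e-04 and 0.00422). Irs2, Nras and Insr, of growth factor signalling, were 2.18-fold, 1.55-fold and 1.43-fold lower with W692A than with AML1/ETO (limma adjusted p = 7.78e-04, 0.00547 and 0.00837). The Nras and Insr calls were lost with the mean of their probe sets (limma adjusted p = 0.150 and 0.425, differences -0.23 and -0.15). Map4k4, a kinase, rose 1.94-fold with AML1/ETO (limma adjusted p = 0.00220) and 1.64-fold with W692A (0.0220), and Cdc34, a ubiquitin-conjugating enzyme, rose 1.39-fold with W692A (0.0210). Without GFP replicate 2 the W692A calls of Map4k4 and Cdc34 were lost (limma adjusted p = 0.104 and 0.0991). They were also lost without GFP replicate 3 or W692A replicate 3 for Map4k4 (0.109 and 0.0582), and without GFP replicate 1 or W692A replicate 1 for Cdc34 (0.0644 and 0.0508). With the mean of its probe sets the Map4k4 difference with W692A was 0.30 in place of 0.71 (limma adjusted p = 0.0789). The Gapdh covariate brought the W692A differences of Map4k4 and Cdc34 to 0.29 and 0.11, in place of 0.71 and 0.47. Their limma adjusted p was then 0.831 and 0.913.

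The other high mobility group proteins on the list did not share the difference of Hmga2 as a set. Hmga1, its close relative, was not analysed, so the counts do not speak for it. Of 14 measured, 9 above the bound, 0 rose and 1 fell with W692A against GFP in limma (0 higher and 3 lower at an unadjusted p below 0.05, median -0.01, all genes 0.01). With AML1/ETO against GFP 1 rose and 3 fell (median -0.02, all genes -0.02), and with W692A against AML1/ETO 3 were higher and 1 lower (median 0.09, all genes 0.03). Hmgb3, a DNA-bending protein of blood progenitors, gave 4.76, 4.36, 4.23 and 4.48 with W692A, 3.77, 3.60 and 3.97 with AML1/ETO, and 5.35, 5.22 and 5.10 with GFP, 3 separate groups with GFP highest. It fell 1.70-fold with W692A (limma adjusted p = 0.00169, but 0.358 with the Gapdh covariate, at a difference of -0.52 in place of -0.76) and 2.71-fold with AML1/ETO (2.77e-06). Hmgn1, a nucleosome-binding protein, fell 1.96-fold with AML1/ETO (limma adjusted p = 6.17e-05) and was 1.65-fold higher with W692A than with AML1/ETO (9.14e-04). Hmgn3 was 1.66-fold lower with W692A than with AML1/ETO (limma adjusted p = 0.00106).

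ARID family genes share the DNA-binding domain of Arid3a, and their list was chosen with earlier results of these data known. Over all genes, 5.45% were called higher and 9.07% lower with W692A against GFP. With AML1/ETO against GFP the shares were 12.9% higher and 15.8% lower, and with W692A against AML1/ETO 9.61% and 11.1%. Of 12 measured besides Arid3a, 10 above the bound, 3 rose and 0 fell with W692A against GFP in limma (4 higher and 1 lower at an unadjusted p below 0.05, median 0.17, all genes 0.01). With AML1/ETO against GFP 4 rose and 0 fell (5 and 0 at an unadjusted p below 0.05, median 0.27, all genes -0.02). With W692A against AML1/ETO 0 were higher and 3 lower (1 and 5 at an unadjusted p below 0.05, median -0.06, all genes 0.03). Arid5b, a partner of a histone demethylase, gave 5.16, 5.08, 4.80 and 5.04 with W692A, 6.46, 6.18 and 5.97 with AML1/ETO, and 4.43, 4.55 and 4.18 with GFP. It rose 1.55-fold with W692A (limma adjusted p = 0.00629, but 0.549 with the Gapdh covariate, at a difference of 0.41 in place of 0.63) and 3.52-fold with AML1/ETO (2.99e-07). It was 2.27-fold lower with W692A than with AML1/ETO (limma adjusted p = 2.55e-05). Kdm5b, a demethylase of histone H3, gave 6.84, 6.36, 6.80 and 6.57 with W692A, 7.84, 7.50 and 7.33 with AML1/ETO, and 6.13, 6.15 and 6.15 with GFP. It rose 2.67-fold with AML1/ETO (limma adjusted p = 4.26e-06) and was 1.88-fold lower with W692A than with AML1/ETO (2.87e-04). Its rise of 1.42-fold with W692A (limma adjusted p = 0.0278) was lost without any 1 GFP array or W692A replicate 1 or 3 (0.0654 to 0.0879). With the mean of its probe sets that difference was 0.25 (limma adjusted p = 0.108), and with the Gapdh covariate it was 0.14 in place of 0.50 (0.902). Kdm5a rose 1.65-fold with W692A (limma adjusted p = 0.00461) and 1.51-fold with AML1/ETO (0.0111). Both Kdm5a calls were lost with the mean of its probe sets (limma adjusted p = 0.844 and 0.425), at differences of 0.041 and 0.13. The closest relative of Arid3a, Arid3b, was below the bound on all arrays.

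The insulin-like growth factor genes held large differences in single members. Of 18 measured, 9 above the bound, 2 rose and 2 fell with W692A against GFP (median 0.07, all genes 0.01). With AML1/ETO against GFP 6 rose and 3 fell (median 0.10, all genes -0.02), and with W692A against AML1/ETO 1 was higher and 5 lower (median -0.05, all genes 0.03). Igf2 and its receptor Igf2r were under the bound in every group. Igf2 is 1 of the 6 that rose with AML1/ETO and 1 of the 5 lower with W692A than with AML1/ETO, and Igf2r is 1 of the 3 that fell with AML1/ETO and the 1 gene higher with W692A than with AML1/ETO. Plagl1, an imprinted zinc finger factor, gave 4.34, 3.09, 4.03 and 3.34 with W692A, 6.40, 5.51 and 4.92 with AML1/ETO, and 3.06, 2.73 and 2.19 with GFP. It rose 7.74-fold with AML1/ETO (limma adjusted p = 1.23e-05) and was 3.74-fold lower with W692A than with AML1/ETO (6.92e-04). Its 2.07-fold rise with W692A over GFP (limma adjusted p = 0.0473) was lost without any 1 GFP array, AML1/ETO replicate 2 or W692A replicate 1, 3 or 4 (0.0520 to 0.184), and turned to -0.12 with the Gapdh covariate (0.966).

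Igf1, the growth factor, gave 2.85, 2.45, 2.35 and 2.35 with W692A, 4.53, 3.66 and 3.68 with AML1/ETO, and 1.69, 1.46 and 1.67 with GFP. AML1/ETO exceeded GFP by at least 3.77-fold (limma adjusted p = 5.32e-07) and W692A did so by at least 1.37-fold (0.00543, but 0.545 with the Gapdh covariate and 0.390 with values floored at the bound, at differences of 0.55 and 0.46 in place of 0.89). With the mean of its probe sets the W692A difference was 0.54 (limma adjusted p = 0.105). Igf2, whose message the Igf2bp proteins bind, had every group mean below the bound. Igfbp7, a secreted binding protein, gave 1.78, 2.22, 2.00 and 1.97 with W692A, 1.98, 2.10 and 1.94 with AML1/ETO, and 3.51, 3.71 and 3.50 with GFP. It was lower by at least 2.81-fold with W692A (limma adjusted p = 4.40e-07) and at least 2.86-fold with AML1/ETO (2.94e-07). Grb10, an adaptor that restrains these receptors, fell 2.00-fold with W692A (limma adjusted p = 0.00494, but 0.377 with the Gapdh covariate, at a difference of -0.80 in place of -1.0) and 1.83-fold with AML1/ETO (0.00830, but 0.0882 with it, at -0.75 in place of -0.87). With the mean of its probe sets the W692A difference shrank to -0.23 (limma adjusted p = 0.195). Both Grb10 calls were also lost with values floored at the bound (limma adjusted p = 0.0723 with W692A and 0.0802 with AML1/ETO). Igf1r, the receptor, did not pass in any comparison, with differences of -0.06, -0.04 and -0.02 for W692A minus GFP, AML1/ETO minus GFP and W692A minus AML1/ETO.

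Genes reported as targets or partners of Hmga2 showed no common direction. Of 14 measured, 6 above the bound, 1 rose and 1 fell with W692A against GFP (median 0.11, all genes 0.01). With AML1/ETO against GFP 3 rose and 2 fell (median 0.09, all genes -0.02), and with W692A against AML1/ETO 3 were higher and 2 lower (median 0.04, all genes 0.03). Junb and Cdkn2b, 2 of the 3 that rose with AML1/ETO, were under the bound in both groups. Ccna2, cyclin A2, gave 8.0, 7.98, 7.96 and 7.93 with W692A, 6.86, 6.74 and 7.05 with AML1/ETO, and 8.43, 8.33 and 8.33 with GFP. It fell 2.79-fold with AML1/ETO (limma adjusted p = 1.56e-07) and was 2.12-fold higher with W692A than with AML1/ETO (4.50e-06). Its fall of 1.32-fold with W692A (limma adjusted p = 0.0210) was lost without GFP replicate 1 (0.0843) or W692A replicate 4 (0.0551). It was also lost with the Gapdh covariate (limma adjusted p = 0.759), at a difference of -0.21 in place of -0.40. Smad3, a mediator of TGF-beta signals, rose 1.57-fold with W692A (limma adjusted p = 0.00156, but 0.148 with the Gapdh covariate, at a difference of 0.66 in place of 0.65). With the mean of its probe sets that difference shrank to 0.28 and the call was lost (limma adjusted p = 0.0704). Cdkn2a, the cell cycle inhibitor locus that Hmga2 is reported to repress in mouse stem cells, was below the bound in all groups, at means of 0.51 with W692A, 0.54 with AML1/ETO and 0.22 with GFP.

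Other genes of fetal and embryonic blood gave a mixed picture. Of 17 measured, 6 above the bound, 3 rose and 1 fell with W692A against GFP (median 0.10, all genes 0.01). With AML1/ETO against GFP 5 rose and 2 fell (median 0.07, all genes -0.02). With W692A against AML1/ETO 0 were higher and 4 lower in limma, the same counts as at an unadjusted p below 0.05 (median 0.04, all genes 0.03). Under the bound in both groups compared were Hbb-bh1 among the 3 that rose with W692A, Igf2 among the 5 that rose with AML1/ETO, and Igf2 and Mest among the 4 lower with W692A than with AML1/ETO. Hbb-y, an embryonic globin, gave 6.44, 5.40, 6.20 and 5.82 with W692A, 8.69, 8.56 and 8.26 with AML1/ETO, and 0.26, 0.63 and 0.55 with GFP. It was thus separate in all groups, and 5.81-fold lower with W692A than with AML1/ETO (limma adjusted p = 5.26e-07). Sox17, a factor of fetal blood stem cells, gave 0.48, 0.56, 0.83 and 0.61 with W692A, 5.21, 5.17 and 6.28 with AML1/ETO, and 0.00, 0.35 and 0.51 with GFP. Its signal was above the bound with AML1/ETO alone, where it was at least 11.4-fold higher than with W692A (limma adjusted p = 1.71e-09) or GFP (4.59e-10). The mean level of 8 measured stromal and endothelial markers was 1.13 to 1.25 with W692A, 1.82 to 2.05 with AML1/ETO and 1.18 to 1.32 with GFP, likewise highest with AML1/ETO. Only 3 of these 8 had a group mean above the bound, and Col1a1, Col3a1, Cdh5, Pecam1 and Kdr were under it in every group. The part of these markers in the Sox17 difference was not tested. On the brightest Hmga2 probe set, W692A and AML1/ETO arrays overlapped. Afp, alpha-fetoprotein, rose 2.31-fold with W692A (limma adjusted p = 2.49e-04, but 0.0750 with the Gapdh covariate, at a difference of 1.12 in place of 1.21) and 2.52-fold with AML1/ETO (5.44e-05). Cdkn1c, an imprinted cell cycle inhibitor, was lower with both, by at least 1.37-fold each (limma adjusted p = 2.66e-05 with W692A and 3.23e-06 with AML1/ETO). Those calls were lost with values floored at the bound (0.101 and 0.0714), where both differences were -0.45. Mycn fell 1.47-fold with AML1/ETO (limma adjusted p = 0.00426, but 0.0983 with the Gapdh covariate, at a difference of -0.40 in place of -0.56). Hba-x, Dlk1, Gpc3, Peg3 and Trim71 were below the bound in all groups.

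Regulators of adult stem cells and their progeny held the largest share of calls among the 8 lists in each comparison. Over all genes the share called was 14.5% between W692A and GFP, 28.6% between AML1/ETO and GFP, and 20.7% between W692A and AML1/ETO. The lists were chosen with earlier results of these data known, so this ranking is a description and no test of the list. Of 12 measured, 10 above the bound, 4 rose and 2 fell with W692A against GFP (median 0.22, all genes 0.01). With AML1/ETO against GFP 7 rose and 2 fell (median 0.65, all genes -0.02), and with W692A against AML1/ETO 2 were higher and 6 lower (median -0.33, all genes 0.03). Gata3, 1 of the 7 that rose, was under the bound in both groups. Bcl11a, which silences embryonic and fetal globins in adult cells, gave 5.35, 5.63, 5.68 and 5.51 with W692A, 5.09, 5.05 and 5.13 with AML1/ETO, and 7.20, 7.09 and 7.18 with GFP. It fell 3.06-fold with W692A (limma adjusted p = 1.59e-07) and 4.18-fold with AML1/ETO (5.72e-09). Cebpa, of granulocyte development, gave 3.89, 4.13, 4.32 and 4.42 with W692A, 2.34, 2.62 and 2.94 with AML1/ETO, and 5.11, 5.74 and 6.06 with GFP. It was 2.95-fold higher with W692A than with AML1/ETO (limma adjusted p = 5.94e-05), and its 2.73-fold fall with W692A against GFP (1.98e-04) was lost with the Gapdh covariate (0.167, difference -0.96 in place of -1.45). Hlf, a stem cell factor, averaged 7.43 with W692A, 8.42 with AML1/ETO and 4.13 with GFP, and Mecom, another, 5.42, 6.17 and 4.68 in that order of groups. Both were lower with W692A than with AML1/ETO, by 1.99-fold and 1.69-fold (limma adjusted p = 1.63e-04 and 6.31e-04). The Mecom call was lost with the mean of its probe sets (0.170, difference -0.20). Egr1 and Socs2, which restrain stem cell cycling and cytokine signals, rose 2.38-fold and 1.98-fold with W692A (limma adjusted p = 4.81e-04 and 3.87e-04), and the Egr1 call was lost with the Gapdh covariate (0.398, difference 0.51 in place of 1.25). Mllt3, which maintains human stem cells, was 2.25-fold lower with W692A than with AML1/ETO (limma adjusted p = 0.00751). With values of all genes floored at the bound its adjusted p was 0.0947 and its difference stayed at -1.17, since no Mllt3 value lay under the bound.

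**Figure D4:**
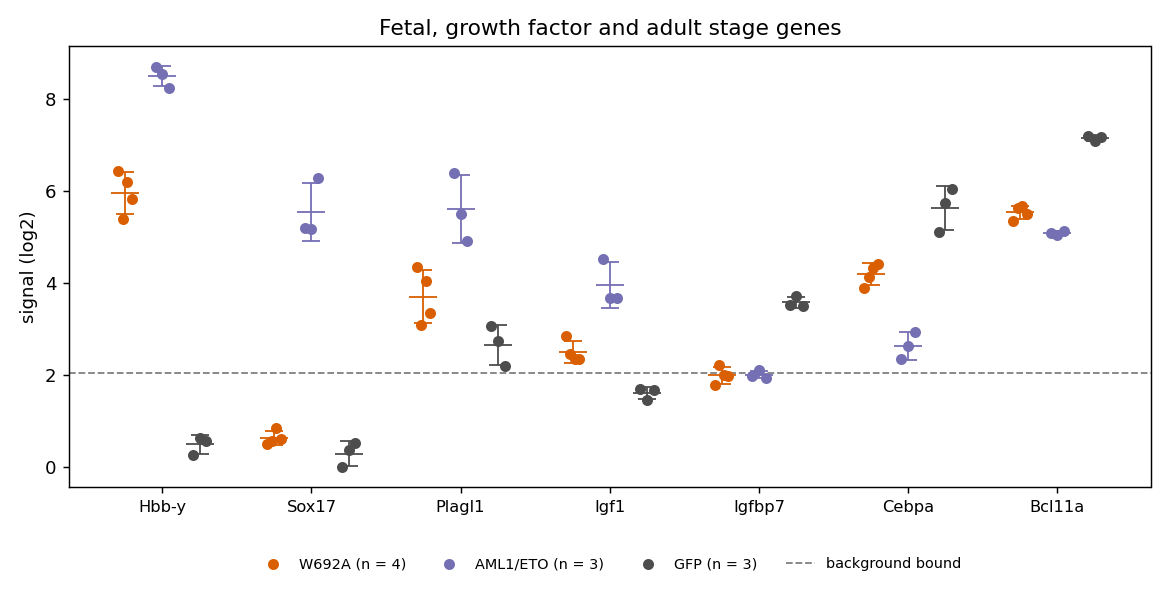
Log2 signal on each array (points), with group mean and SD (bars), of 7 genes from the fetal, growth factor and adult lists; the dashed line is the bound of 2.04. Sox17 is above the bound with AML1/ETO alone, Hbb-y lies at 5.40 to 6.44 in W692A, 8.26 to 8.69 in AML1/ETO and 0.26 to 0.63 in GFP, and Bcl11a is highest in GFP at 7.09 to 7.20.

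The genes whose profiles came nearest to that of Hmga2 were found by the root mean square difference of log2 values over the 10 arrays, after each gene was centred on its own mean, among the 8820 genes that exceeded the bound in some group. The nearest were Hlf (0.421), Il2ra, a receptor chain for interleukin 2 (0.423), Ctla2a (0.439) and Ctla2b (0.469), inhibitors of cysteine proteases, and Fos, a subunit of AP-1 (0.473). The median over all genes was 1.86, and the root mean square of Hmga2 about its own mean was 1.81. Il2ra was the 1 of these 5 that, like the brightest probe set of Hmga2, had overlapping W692A and AML1/ETO arrays, at 3.80, 3.76, 4.17 and 3.83 with W692A, 3.73, 3.85 and 3.94 with AML1/ETO, and 0.79, 0.69 and 0.52 with GFP. The other 4 were lower with W692A than with AML1/ETO, such as Ctla2b at 9.69, 9.43, 9.47 and 9.42 with W692A against 10.68, 10.76 and 10.53 with AML1/ETO, and 5.50, 5.76 and 5.57 with GFP. These genes were chosen for their pattern, so no test is given.

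For Igf2bp3, whose own root mean square was 0.300, the nearest profiles were those of Nrbp1 (0.0902), Retreg3 (0.115) and Oaz2 (0.116), against a median of 0.433. For Arid3a, at 0.392 about its own mean, they were Nfic (0.178), Mier2 (0.183) and C1qtnf6 (0.185), against a median of 0.519. Lin28b was below the bound and has no profile to compare.

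**Figure D5:**
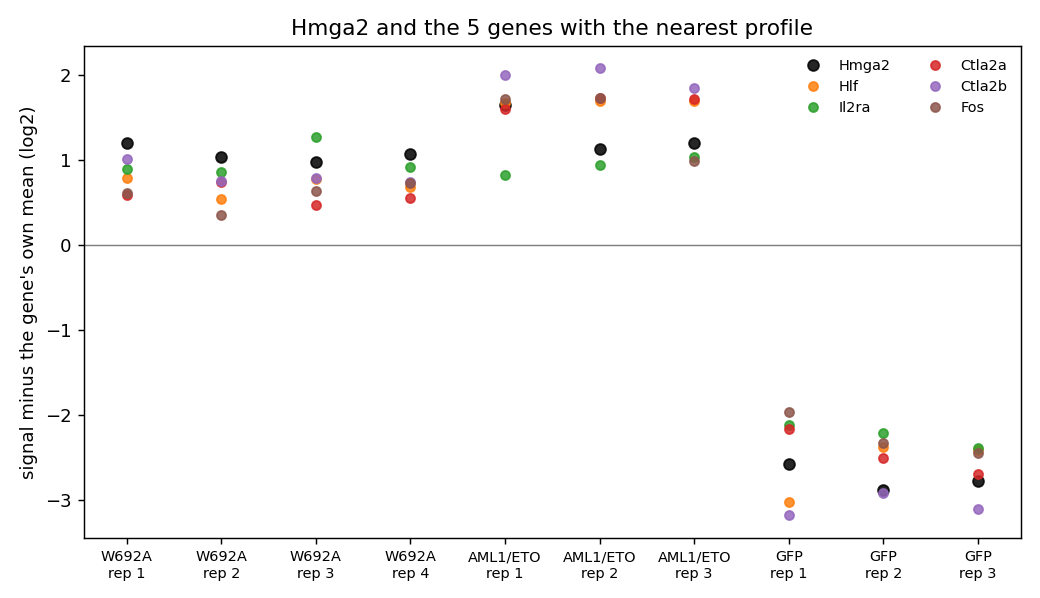
Log2 signal minus the gene's own mean over the 10 arrays, for Hmga2 (black) and the 5 genes with the smallest root mean square difference from it (0.421 to 0.473), by array. W692A and AML1/ETO arrays lie above 0 and GFP arrays below it for all 6 genes, and Hmga2 (its brightest probe set) and Il2ra overlap between W692A and AML1/ETO.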

How the data were processed

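Gene expression was measured on 10 arrays of sorted mouse bone marrow cells. The authors deposited 1 log2 intensity for each probe set on each array. They used RMA, per the submitters' processing notes, which name no version. Base 2 was inferred: read in base e, the highest value, 12.77, gives 350219, over the limit of 65535 of a 16-bit scanner, and in base 2 it gives 6967. Of 45101 probe sets, 34945 had 1 gene symbol, 932 had several and were left out, 64 were controls and 9160 had no listed gene. Symbols were updated to GRCm38.p6 by gene identifier for 34741 and kept as on the platform for 204. For each of 18193 genes, the probe set of highest average signal across the 10 arrays was used.

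Groups came from the sample labels. Differences were tested with limma 3.58.1 (R 4.3.3) in 1 fit of the 3 groups, with 7 residual degrees of freedom and Benjamini-Hochberg adjustment over all genes, at a threshold of 0.05. The fit was tested on simulated data. Hmga2 was not tested, because it headed the choice of members. The members and lists were chosen with earlier results of these data known. The lists were the let-7 pathway and IMP (Igf2bp) family, reported let-7 targets, high mobility group proteins, the ARID family, the insulin-like growth factor axis, reported Hmga2 targets and partners, other fetal and embryonic blood genes, and adult stage regulators. List counts leave out the members.

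The background bound is the highest value of 27 bacterial control probe sets (dap, lys, phe, thr and trpn) on any array. Named genes were the members with every probe set, their relatives Igf2bp1 and Lin28a, Runx1 and Runx1t1, and the genes with the nearest profiles. Per list and comparison, they also included up to 3 called genes in each direction, by size of difference, whose groups did not overlap and whose higher group mean was above the bound. Hmga2-ps1, and list genes given as below the bound or as not passing, were named after their values were seen. Alternatives were a filter on the 40% of genes with the lowest mean, other probe set rules, further normalization, a trended variance prior, fitting only the groups compared, weighting arrays, blocking on replicate number, covariates for spike-in level and for the Gapdh difference between 3′ and 5′ probe sets, values floored at the bound, and leaving out each array. Deviations of same-numbered arrays correlated at -0.13 to 0.46. For replicate 1 they were 0.26 (W692A and GFP), 0.29 (AML1/ETO and GFP) and 0.46 (W692A and AML1/ETO). The other replicate numbers gave -0.13 to 0.34. No values for arrays of unlike number are given beside them, so they do not decide whether the replicate numbers pair the samples. The main fit left the samples unpaired. For arrays, their number limits the precision.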

Additional observations from a re-analysis of the deposited data

Results flagged for a closer look

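In the W692A group of 4 arrays, 1 array stood apart from the other 3 by Dixon's criterion for 6 of 75 genes and probe sets examined, where chance gives about 1 in 20. Irs2 was 3.41 on W692A replicate 3, against 2.58, 2.63 and 2.67 on the others, and Il2ra was 4.17 on the same array, against 3.76, 3.80 and 3.83. E2f6 was 4.76 on W692A replicate 4, against 4.63, 4.63 and 4.64, and Socs2 was 8.53 on it, against 8.34, 8.35 and 8.37. Mycn was 10.63 on W692A replicate 1, against 10.97, 11.01 and 11.02. Runx1t1 was 0.86 on that array, against 0.53, 0.55 and 0.59, all below the background bound. No Hmga2 or Igf2bp3 array stood apart. Groups of 3 arrays were not examined in this way.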

How the results depend on the processing

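The direction of the Hmga2 difference between either fusion and GFP was kept under all 22 alternatives. It was 3.34 with probe sets averaged per gene and 3.67 with the Gapdh covariate for W692A minus GFP, and 3.61 with the mean of probe sets for AML1/ETO minus GFP. Igf2bp3 passed between W692A and GFP with the mean of probe sets (0.40) and ranged from 0.20 to 0.47 with an array left out, and between W692A and AML1/ETO it passed in a fit of those 2 groups (-0.36), ranging from -0.42 to -0.28 with an array left out. Arid3a did not pass between W692A and GFP with the mean of probe sets, every probe set or 2 groups in the fit (0.64 each), the Gapdh covariate (0.66) or values floored at the bound (0.35), and ranged from 0.45 to 0.94 with an array left out. Between AML1/ETO and GFP, Arid3a passed with the lowest 40% of genes removed (0.57), array weights (0.61) and the replicate block (0.57, limma adjusted p = 0.0257), and ranged from 0.38 to 0.87 with an array left out. Its W692A minus AML1/ETO difference turned to -0.066 with the spike-in covariate and to -0.0061 without W692A replicate 3, and ranged from -0.0061 to 0.16 with an array left out. The causes were not tested.

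Between W692A and GFP, 506 genes were called with the Gapdh covariate and 1468 with floored values (1774 to 2615 with an array left out), and list genes fell to 8 with the covariate. Between W692A and AML1/ETO, floored values gave 2485 genes and 26 list genes. Plagl1 turned to -0.12 between W692A and GFP with the Gapdh covariate. With the replicate number as a block, 2344 genes were called between W692A and GFP, 5272 between AML1/ETO and GFP, and 3509 between W692A and AML1/ETO. That block took 4 of 34, 0 of 44 and 1 of 36 calls of named genes other than the members past the threshold in these comparisons. Of 114 calls of named genes other than the members, 59 held under all 22 alternatives and 25 were lost when some array was left out.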
